A study of Mus musculus with 30 samples.

Results

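Lysosomes break down what macrophages engulf, and the transcripts of 45 genes for lysosomal enzymes, membrane proteins and the proton pump that acidifies the organelle were followed across 6 groups of tumour macrophages. The 45 genes were chosen by name as rows of a deposited table of 46603 genes, and each name stood on 1 row. They comprised 11 proteases (cathepsins and legumain), 14 other hydrolases, 4 soluble cofactors, carriers and a protease inhibitor, 7 membrane proteins with the sorting receptor Sort1, 3 transcription factors and 6 subunits of the proton pump. Macrophages came from tumours that 3LL-R cells, a Lewis lung carcinoma line, had formed under the skin of WT C57BL/6 mice, whose age the labels do not give. They were parted by surface MHC class II into MHC-IIhi and MHC-IIlo tumour-associated macrophages (TAM). Each subset gave 5 libraries from 30000 cells lysed straight after sorting (fresh). Another 10 came from 250000 cells each after 24 h in culture, 5 of them without lactate (no-lactate) and 5 with sodium L-lactate at 20 mM (lactate). The labels call the libraries biological replicates and do not say whether mice were pooled. The p-values set differences against the spread between these libraries, which may not be that between mice. Values of a group are listed by library number, which runs from 1 to 5 in the fresh groups, from 3 to 7 in no-lactate MHC-IIhi, and is 1, 3, 4, 5 and 6 in the other cultured groups.

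A lysosome is a membrane compartment kept acidic by the vacuolar proton pump (V-ATPase), whose membrane sector (V0) passes the protons and whose cytosolic sector (V1) burns ATP. Cathepsins cut proteins, glycosidases, lipases and phosphatases degrade the rest, and heavily glycosylated membrane proteins such as LAMP1 line the wall. The related transcription factors TFEB, TFE3 and MITF can switch on many lysosomal genes together by binding an E-box with the core CACGTG, and in macrophages lysosomal proteases also cut antigen for loading onto MHC class II.

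Promoters are shown first because this E-box is the sequence through which the listed factors are known to reach lysosomal genes. RefSeq windows of 300 bases, from 250 before to 50 after a start site on GRCm38.p6, matched 36 of the 45 members. Both strands were searched for CACGTG, which reads the same on each. It occurred in 11 of 36 members (30.6%), against 8.09% of all 27025 genes with a window of that length. Per window the shares were 23.9% of 46 and 7.15% of 32851. The 11 members were the proteases Ctsa, Ctsd, Ctsf, Ctsl and Lgmn, the glycosidases Gaa and Glb1, the membrane proteins Lamp1 and Mcoln1, and the pump subunits Atp6v0d1 and Atp6v1a. The longer form TCACGTGA, which contains CACGTG, was in 5 of them (Atp6v0d1, Atp6v1a, Ctsa, Ctsd and Mcoln1), 13.9% of matched members against 1.12% of genes. TCATGTGA, a form that MITF is also known to bind and that holds no CACGTG, was in 4 members (Acp5, Grn, Ppt1 and Tpp1) and 1.15% of genes. A match describes letters and is no measured binding site.

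Stretches of 140 bases follow for 6 members with the core and, for contrast, for Lyz2 and Psap, the members with the highest levels per length in fresh cells, whose windows hold none. Each runs 5′ to 3′ along the gene's strand, and capitals mark CACGTG.
Lamp1 chr8:13159021-13159160 (plus strand): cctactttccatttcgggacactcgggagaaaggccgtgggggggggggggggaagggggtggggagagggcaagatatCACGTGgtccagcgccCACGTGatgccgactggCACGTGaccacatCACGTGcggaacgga
Mcoln1 chr8:3500379-3500518 (plus strand): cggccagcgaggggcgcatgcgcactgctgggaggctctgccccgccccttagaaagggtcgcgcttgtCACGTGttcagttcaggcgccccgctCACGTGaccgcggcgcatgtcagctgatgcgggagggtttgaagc
Ctsd chr7:142387828-142387967 (minus strand): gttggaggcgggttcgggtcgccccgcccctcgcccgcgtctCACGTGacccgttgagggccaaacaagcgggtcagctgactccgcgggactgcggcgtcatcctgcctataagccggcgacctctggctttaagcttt
Lgmn chr12:102439093-102439232 (minus strand): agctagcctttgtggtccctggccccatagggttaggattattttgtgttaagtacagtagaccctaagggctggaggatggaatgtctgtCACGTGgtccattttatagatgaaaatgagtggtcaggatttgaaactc
Glb1 chr9:114400938-114401077 (plus strand): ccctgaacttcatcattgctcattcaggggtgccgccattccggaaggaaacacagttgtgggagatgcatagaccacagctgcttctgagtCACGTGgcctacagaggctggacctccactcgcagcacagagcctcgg
Atp6v1a chr16:44139260-44139399 (minus strand): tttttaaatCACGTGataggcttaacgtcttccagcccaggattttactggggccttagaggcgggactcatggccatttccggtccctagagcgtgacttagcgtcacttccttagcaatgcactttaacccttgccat
Lyz2 chr10:117282273-117282412 (minus strand): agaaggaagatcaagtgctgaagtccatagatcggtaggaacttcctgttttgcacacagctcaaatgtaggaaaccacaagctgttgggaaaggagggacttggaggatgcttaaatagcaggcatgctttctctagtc
Psap chr10:60277488-60277627 (plus strand): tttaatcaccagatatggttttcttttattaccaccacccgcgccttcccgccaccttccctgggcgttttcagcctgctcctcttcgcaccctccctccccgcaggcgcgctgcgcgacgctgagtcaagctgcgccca

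The Lamp1 stretch holds 4 copies of the core, which start 61, 45, 28 and 15 bases before the start site. Mcoln1 has 2, at 71 and 45 bases before it. Ctsd has 2 in its window, of which the printed stretch shows the one 98 bases before the start. In Lgmn, Glb1 and Atp6v1a a single copy starts 49, 48 and 131 bases before it. Lgmn has 2 windows, and the other one holds no CACGTG. The printed Lgmn stretch lies within the gene's span of 102394084 to 102439813. Those of Ctsd and Atp6v1a also lie within their genes' spans, of 142371148 to 142388038 and 44085402 to 44139705.

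Total counts were 16913250 to 31481548 per library. The sort showed in the markers: summed MHC class II transcripts were 21137 to 26367 counts per 1000000 counts of the library (CPM) in fresh MHC-IIhi and 442 to 1109 in fresh MHC-IIlo, and all 9 macrophage markers reached a mean of 1 CPM in every group. The cultured library lactate MHC-IIlo 5 stood apart, with a median correlation of 0.962 with its group against 0.973 to 0.988 for the other 29 libraries, and members took 5.16% of its counts. Counts of calls from the fit of cultured cells are therefore also given without it. Several marker lists moved with the groups compared. The 9 macrophage markers summed to 7923 to 10288 CPM in fresh MHC-IIhi and 12141 to 14413 in fresh MHC-IIlo, the 8 neutrophil markers to 295 to 674 and 1103 to 1881, and the 10 dendritic cell markers to 25.2 to 49.6 and 5.11 to 9.20, with Xcr1 at 0 in every fresh MHC-IIlo library. After culture without lactate the dendritic sum was 94.9 to 329 CPM in MHC-IIhi and 3.91 to 7.13 in MHC-IIlo, of which Ccr7 alone had a mean of 146 CPM in MHC-IIhi. The neutrophil sum was 735 to 1056 and 776 to 1041, with Mmp8 at a mean of 761 and 815 CPM. Csf3r had means of 57.6 and 58.1 CPM, Mmp9 of 50.1 and 42.8 and S100a8 of 9.86 and 14.1. S100a9, Cxcr2, Retnlg and Ly6g were each under 0.1 CPM. In fresh MHC-IIhi and MHC-IIlo the largest means of this list were Mmp9 (254 and 750 CPM) and Mmp8 (177 and 432 CPM). With lactate the neutrophil sum was 1553 to 2347 CPM in MHC-IIhi and 599 to 1717 in MHC-IIlo. The macrophage sum was then 4477 to 6970 CPM in MHC-IIhi and 2301 to 4956 in MHC-IIlo, where the median was 4797. Between fresh and no-lactate cells the 7 monocyte markers went from 2505 to 3706 CPM down to 330.2 to 727 in MHC-IIhi, and from 2697 to 3259 down to 142 to 216 in MHC-IIlo. Macrophage markers were at 3925 to 6183 CPM in no-lactate MHC-IIhi and 4262 to 5665 in no-lactate MHC-IIlo. The fibroblast sum was 20.1 to 76.0 CPM in fresh MHC-IIhi and 35.3 to 116 in fresh MHC-IIlo. Epithelial and tumour markers were at 486 to 620 and 132 to 304 CPM in these groups, and at 36.6 to 90.6 and 39.7 to 62.3 after culture without lactate. Endothelial markers were at 98.1 to 121 and 88.6 to 111 CPM fresh, and at 312 to 604 and 278 to 338 after that culture, mostly Kdr. Mitochondrial transcripts took 0.833 to 1.31% and 0.780 to 1.02% of counts in fresh MHC-IIhi and MHC-IIlo, and 0.444 to 0.562% and 0.209 to 0.338% after culture without lactate. The part of these in the results below was not tested. In bulk RNA, more cells with a transcript and more of it per cell cannot be told apart.

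Together the 45 members took 4.12 to 5.02% of all counts in fresh MHC-IIhi and 5.93 to 6.81% in fresh MHC-IIlo. After culture without lactate the shares were 5.49 to 6.87% in MHC-IIhi and 9.39 to 10.6% in MHC-IIlo, so the subsets did not overlap in either state. The classes went apart. Cathepsins with legumain took 1.099 to 1.59%, 2.47 to 3.11%, 2.29 to 3.04% and 4.56 to 5.22% in those 4 groups, in the order just given. Pump subunits took 0.135 to 0.147%, 0.163 to 0.191%, 0.197 to 0.303% and 0.365 to 0.428%. Both classes were thus higher in MHC-IIlo than in MHC-IIhi in each state, and higher in cultured than in fresh cells of a subset. Other hydrolases ran against this with culture, at 1.71 to 1.84% and 1.82 to 1.96% in the fresh subsets and 0.508 to 0.997% and 0.961 to 1.16% after culture, a fall that Lyz2 carried. Without Lyz2 the other 13 hydrolases took 0.237 to 0.271% in fresh and 0.269 to 0.323% in no-lactate MHC-IIhi, which overlapped slightly. In MHC-IIlo they took 0.327 to 0.372% fresh and 0.387 to 0.438% without lactate, so their sum was higher after culture. The lipase Lipa, 1 of the 13, went from a mean of 136 to 626 CPM in MHC-IIhi and from 147 to 1119 in MHC-IIlo. By group means this was more than the rise of the sum in each subset, so the rest of the 13 summed to less after culture.

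**Figure D1:**
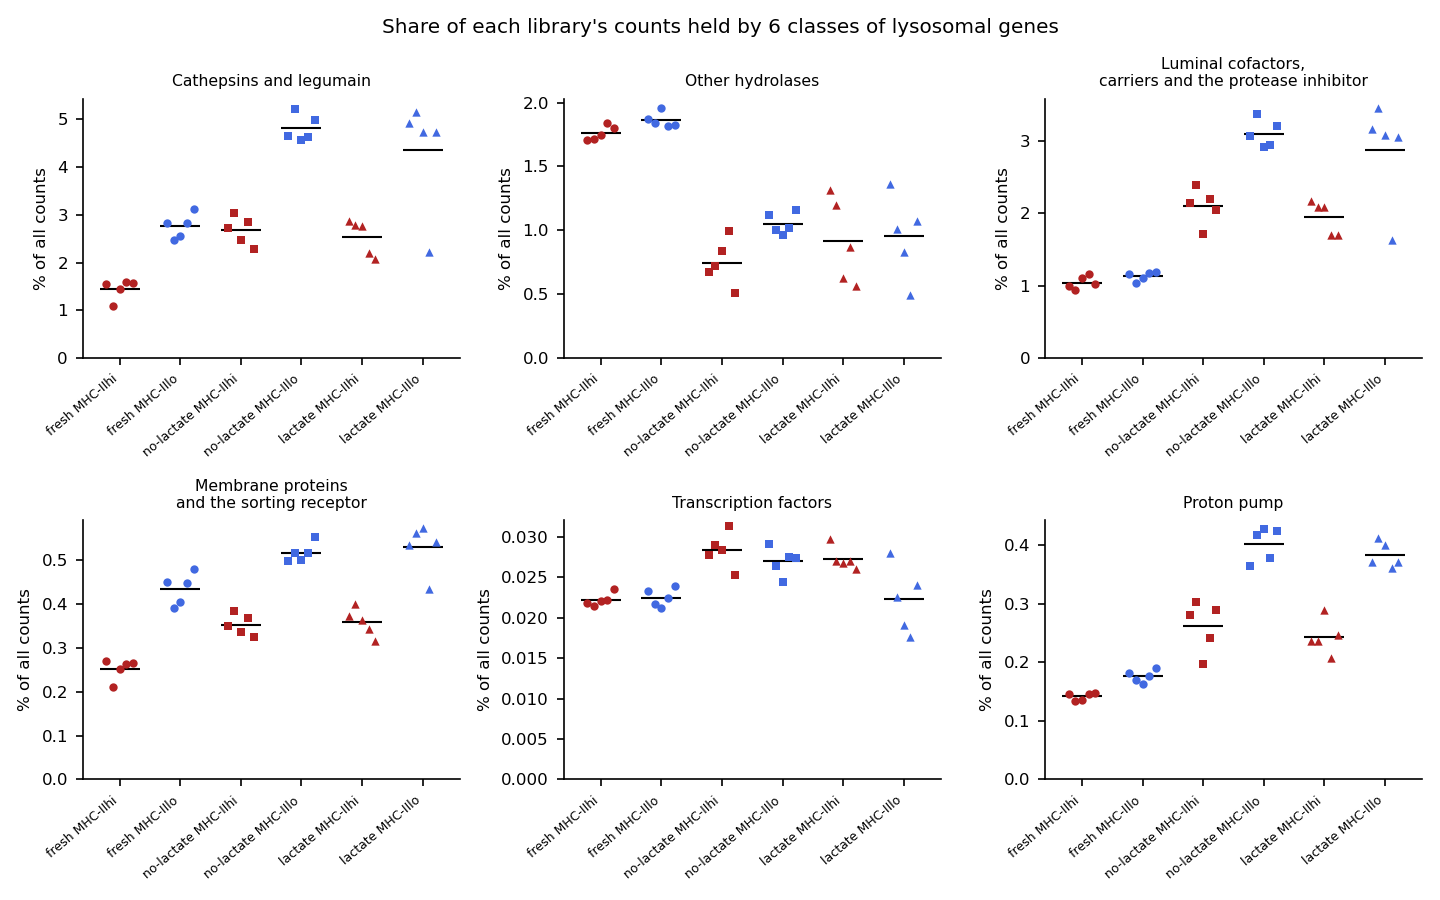
Share of each library's total counts (%, y axis) held by the 6 classes of lysosomal genes, with 1 point per library, 5 per group (x axis), and a line at the group mean; red marks MHC-IIhi, blue MHC-IIlo, circles fresh, squares no-lactate and triangles lactate. Cathepsins and the pump are higher in MHC-IIlo in each condition, apart from 1 lactate MHC-IIlo library among the cathepsins, while other hydrolases, a sum that Lyz2 dominates, are lower in every cultured library than in any fresh one.

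Levels between genes were compared per kilobase of gene length (RPKM, computed from the counts). Lyz2, lysozyme, stood first in both fresh subsets, at 11851 ± 408 RPKM (SD, n = 5) in MHC-IIhi and 11952 ± 527 in MHC-IIlo. Psap, whose product is cut into the saposins that help lipid-degrading enzymes, came second there and first after culture without lactate, at 5087 ± 775 and 8019.9 ± 465 RPKM. Next in fresh MHC-IIlo were Ctsl, Ctsb, Lgmn and Ctsd, at 2165, 1971, 1876 and 1785 RPKM, with SDs of 117, 289.9, 253 and 164, so neighbours in this order lay within their spread. Ctse, a protease of immune and epithelial cells, stood last of 45 in every group, under 2 CPM in each library. Rank within the members moved with culture for a few genes: Ctsc went from 12 to 28 in MHC-IIlo, Lipa from 29 to 14, and Acp5 from 33 to 19 in MHC-IIhi.

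**Figure D2:**
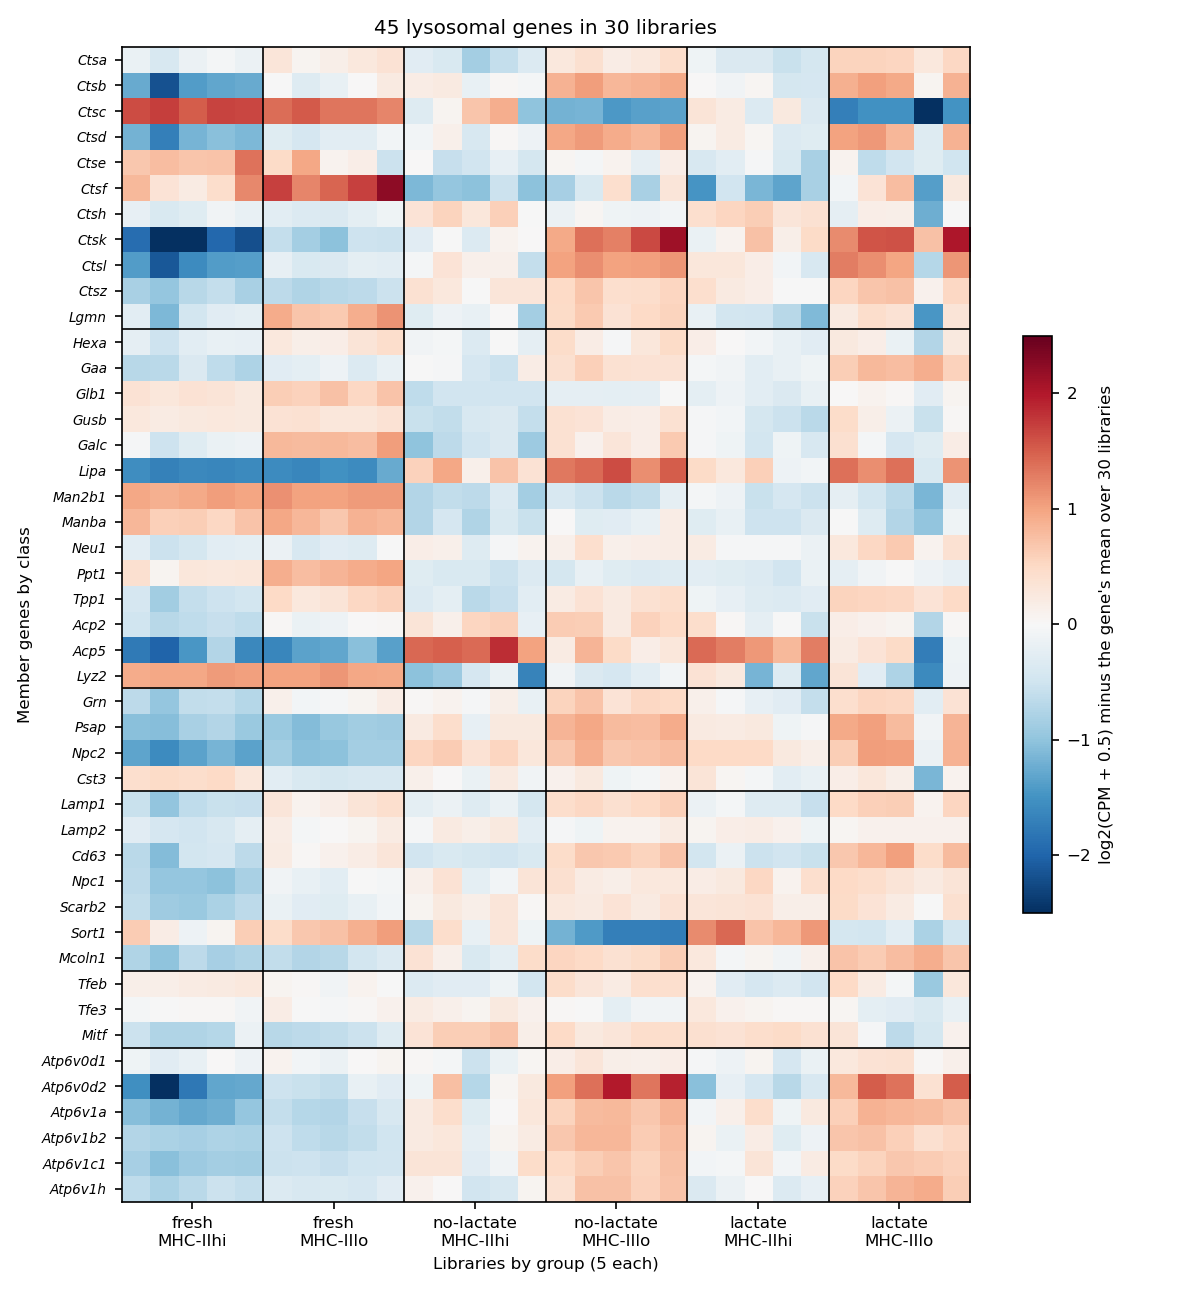
Level of each of the 45 members (rows, by class) in each of the 30 libraries (columns, by group), as log2(CPM + 0.5) minus the gene's mean over all libraries, so that red is above and blue below that mean. Ctsk, Ctsl, Ctsb and Atp6v0d2 are lowest in fresh MHC-IIhi and highest in cultured MHC-IIlo, Ctsc and Lyz2 run the other way with culture, and the fourth lactate MHC-IIlo column (library 5) is paler or bluer than its group for many genes.

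Gene coordinates below are on GRCm38, and log2 fold changes are given ± their standard error. The first comparison asked how the subsets differed straight from the tumour. In fresh MHC-IIlo 25 of 45 members were higher and 2 lower than in fresh MHC-IIhi by edgeR's quasi-likelihood test (adjusted p under 0.05, Benjamini-Hochberg over 12787 genes), where 29.2% of all genes tested were called, 14% higher and 15.2% lower. All 45 passed the filter on low counts here. The median log2 fold change was 0.39 over members and 0.00 over all genes tested. By class, 7 higher and 1 lower of 11 cathepsins with legumain were called, 7 higher and 0 lower of 14 other hydrolases, 2 higher and 1 lower of 4 soluble cofactors, 5 higher and 0 lower of 7 membrane proteins, 0 higher and 0 lower of 3 transcription factors and 4 higher and 0 lower of 6 pump subunits.

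Among the cathepsins, Ctsl (ENSMUSG00000021477, chromosome 13, 64363214 to 64370306), a cysteine protease of the endolysosome, had 1992, 1196, 1758, 1979 and 2009 CPM in fresh MHC-IIhi, against 4522, 3999.6, 4049, 4419 and 4350.0 CPM in fresh MHC-IIlo. Each MHC-IIlo library lay above each MHC-IIhi one (log2 fold change 1.26 ± 0.15, adjusted p = 6.4e-05), which is 2.40-fold. Ctsk (ENSMUSG00000028111, chromosome 3, 95499256 to 95509362), a collagen-degrading cathepsin best known from osteoclasts, had 90.6, 42.7, 55.7, 87.8 and 74.0 CPM in fresh MHC-IIhi and 225, 189, 167, 237 and 234 CPM in fresh MHC-IIlo, with no overlap (log2 fold change 1.60 ± 0.21, adjusted p = 1.3e-04). It had the highest fold change of all members, 3.02-fold. The cysteine protease Ctsb (1.41 ± 0.20), Ctsf (1.2004 ± 0.29) and the aspartic protease Ctsd (0.98 ± 0.14) were also higher, as was Lgmn (1.32 ± 0.19), which cuts after asparagine. Ctsa, the protective protein of the galactosidase and sialidase complex, rose less (0.42 ± 0.11).

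Ctsc, which activates granule serine proteases, went the other way. Its 2766, 2962, 2538, 2877 and 2827 CPM in fresh MHC-IIhi and 2346, 2595, 2266, 2247 and 2068 CPM in MHC-IIlo overlapped at 1 library of each group (log2 fold change -0.27 ± 0.08, adjusted p = 0.0272). This call ended when MHC-IIhi 4 (adjusted p = 0.0615), MHC-IIhi 5 (0.115), MHC-IIlo 3 (0.0582) or MHC-IIlo 5 (0.0666) was left out. It also ended with no filter on low counts (0.081), in the 3 fits of the FPKM table (up to 0.262) and with all 30 libraries in 1 fit (adjusted p = 0.542), where the calls of Ctsa (0.0504), Npc2 (0.142) and Atp6v1h (0.1003) ended too. Ctsz and Ctsh, exopeptidases, were at 0.12 and -0.02 and were not called, nor was the barely detected Ctse (-0.91, adjusted p = 0.179).

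Of the other hydrolases, Galc (ENSMUSG00000021003, chromosome 12, 98202304 to 98259459), which removes galactose from sphingolipids, had 33.3, 23.5, 27.2, 30.1 and 30.9 CPM in fresh MHC-IIhi and 59.4, 58.4, 59.9, 57.6 and 70.3 CPM in fresh MHC-IIlo. The groups were well apart, with the highest MHC-IIhi library below the lowest MHC-IIlo one (log2 fold change 1.08 ± 0.11, adjusted p = 2.1e-05). Tpp1 (ENSMUSG00000030894, chromosome 7, 105744847 to 105752207), a tripeptidase lost in a form of neuronal ceroid lipofuscinosis, had 319, 232, 281, 296 and 309 CPM in fresh MHC-IIhi and 598, 512, 536, 611 and 631 CPM in fresh MHC-IIlo, again without overlap (log2 fold change 1.02 ± 0.12, adjusted p = 5.5e-05). The thioesterase Ppt1 (0.64 ± 0.09), the acid phosphatase Acp2 (0.58 ± 0.09), the hexosaminidase subunit Hexa (0.56 ± 0.11), the glycogen-degrading Gaa (0.39 ± 0.07) and the galactosidase Glb1 (0.33 ± 0.06) were higher too. The other 7 were not called and had log2 fold changes of 0.02 to 0.20, among them Lyz2 (0.02 ± 0.09) and the lipase Lipa (0.12 ± 0.09).

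The soluble helpers split. Cst3 (ENSMUSG00000027447, chromosome 2, 148871722 to 148875692), cystatin C, an inhibitor of cysteine cathepsins, had 1268, 1311, 1273, 1335 and 1143 CPM in fresh MHC-IIhi and 785, 724, 701, 719 and 712 CPM in fresh MHC-IIlo. It was lower in each MHC-IIlo library than in any MHC-IIhi library (log2 fold change -0.79 ± 0.08, adjusted p = 1.6e-05), the smallest adjusted p of the 45. Grn (ENSMUSG00000034708, chromosome 11, 102430315 to 102437048), progranulin, had 1922, 1551, 1962, 1996 and 1849 CPM in fresh MHC-IIhi and 3304, 2856, 2943, 3173 and 3413 CPM in fresh MHC-IIlo, so the inhibitor fell where this lysosomal cofactor rose (log2 fold change 0.77 ± 0.11, adjusted p = 2.7e-04). The cholesterol carrier Npc2 was higher (0.42 ± 0.11), while Psap was not called (-0.02 ± 0.11, adjusted p = 0.918).

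In the membrane class, Lamp1 (ENSMUSG00000031447, chromosome 8, 13159135 to 13175338) had 1494, 1103, 1418, 1496 and 1467 CPM in fresh MHC-IIhi and 2725, 2337, 2450.2, 2741 and 2939 CPM in fresh MHC-IIlo. All 5 MHC-IIlo values were above all 5 MHC-IIhi values, of which library 2 was the lowest (log2 fold change 0.93 ± 0.13, adjusted p = 1.6e-04). Npc1 (ENSMUSG00000024413), which moves cholesterol out of the lysosome with Npc2, had 224, 182, 181, 174 and 202 CPM in fresh MHC-IIhi and 335, 314, 294, 352 and 344 CPM in fresh MHC-IIlo, also apart (log2 fold change 0.78 ± 0.10, adjusted p = 1.1e-04). The tetraspanin Cd63 (0.81 ± 0.14), Scarb2 (0.59 ± 0.10), which carries glucocerebrosidase to the lysosome, and Lamp2 (0.45 ± 0.10) were higher. Sort1, a receptor that sorts cargo from the Golgi, and the calcium channel Mcoln1 were not called, at 0.50 (adjusted p = 0.0578) and 0.25 (adjusted p = 0.13).

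None of the 3 transcription factors was called. Tfeb (ENSMUSG00000023990, chromosome 17, 47737030 to 47792419) had 38.0, 38.1, 39.8, 40.4 and 41.1 CPM in fresh MHC-IIhi and 35.9, 35.2, 32.3, 36.4 and 34.2 CPM in fresh MHC-IIlo. Its values did not overlap and were lower in MHC-IIlo, and the difference missed the threshold (log2 fold change -0.17 ± 0.08, adjusted p = 0.146). Tfe3 (ENSMUSG00000000134, chromosome X, 7762560 to 7775202) had 128, 132, 136, 136 and 126 CPM in fresh MHC-IIhi and 151, 133, 131, 135 and 144 CPM in fresh MHC-IIlo, which overlapped (log2 fold change 0.09 ± 0.08, adjusted p = 0.434). Mitf (ENSMUSG00000035158, chromosome 6, 97807052 to 98021349) had 51.7, 44.99, 44.7, 45.9 and 68.0 CPM in fresh MHC-IIhi and 46.7, 48.2, 49.0, 52.2 and 60.5 CPM in fresh MHC-IIlo, and overlapped as well (log2 fold change 0.02 ± 0.14, adjusted p = 0.948). RNA levels do not show where these proteins were in the cell.

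In the proton pump, Atp6v0d2 (ENSMUSG00000028238, chromosome 4, 19876841 to 19922605), an alternative d subunit of the V0 sector known from osteoclasts and macrophages, had 28.2, 12.8, 23.5, 33.4 and 33.8 CPM in fresh MHC-IIhi and 57.9, 55.9, 54.0, 72.5 and 68.0 CPM in fresh MHC-IIlo. It was 2.34-fold higher in MHC-IIlo without overlap (log2 fold change 1.23 ± 0.23, adjusted p = 0.00162). Its broadly expressed counterpart Atp6v0d1 (ENSMUSG00000013160, chromosome 8, 105524465 to 105566047) had 269, 241, 257, 296 and 267 CPM in fresh MHC-IIhi and 312, 279.5, 263, 292 and 306 CPM in fresh MHC-IIlo, overlapped and was not called (log2 fold change 0.14 ± 0.10, adjusted p = 0.344). Atp6v1a (ENSMUSG00000052459, chromosome 16, 44085402 to 44139705), the catalytic subunit of V1, had 323, 300.4, 279, 292 and 345 CPM in fresh MHC-IIhi and 448, 413, 406, 454 and 512 CPM in fresh MHC-IIlo, with no overlap (log2 fold change 0.55 ± 0.11, adjusted p = 0.00185). The V1 subunits Atp6v1c1 (0.39 ± 0.08) and Atp6v1h (0.29 ± 0.08) were higher by less, the latter with an adjusted p of 0.0507 without MHC-IIlo 5, and Atp6v1b2 was not called (0.21, adjusted p = 0.081). Of 6 osteoclast markers, Calcr was at 0 in every library of all groups. Their sum was 141 to 179.6 CPM in fresh MHC-IIhi and 62.2 to 72.9 in fresh MHC-IIlo. Means in these groups were 49.3 and 2.90 CPM for Dcstamp, 32.8 and 1.26 for Ocstamp and 74.3 and 59.6 for Nfatc1. Oscar was at 0.07 and 0.02 CPM, and Itgb3 went the other way, at 2.21 and 4.21 CPM. After culture without lactate the osteoclast sums overlapped, at 65.3 to 80.5 and 71.9 to 78.0 CPM. Nfatc1 then had means of 52.2 and 60.3 CPM, Itgb3 of 9.74 and 14.1, Dcstamp of 7.48 and 0.46 and Ocstamp of 1.69 and 0.29.

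Set beside the promoters, 9 of the 11 members with CACGTG were higher and 0 lower in fresh MHC-IIlo, with a median of 0.55. Of the 25 matched members without it 11 were higher and 2 lower, with a median of 0.14. The 9 members without a window had 5 higher and 0 lower (median 0.39), and 29.2% of all genes were called. Of the 2 left uncalled among the 11, Mcoln1 has 2 copies of the core and Atp6v0d1 has 1, which spans its start site. Between the no-lactate subsets the counts were 8 and 0 of 11 with it and 8 and 2 of 25 without, beside 20.8% of all genes. With culture itself, members with the core had 6 higher and 2 lower of 11 in MHC-IIhi (median 0.43) and 5 and 2 in MHC-IIlo (0.27). Matched members without it had 12 and 9 of 25 (0.24) and 14 and 6 (0.49), beside 62% and 57.5% of all genes. In the difference of culture effects 0 of 11 with it and 8 of 25 without were called, beside 14.3% of all genes. Calls among all genes with the core were not counted, and whether these shares differ was not tested.

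The same comparison was made after 24 h without lactate. In no-lactate MHC-IIlo 21 members were higher and 3 lower than in no-lactate MHC-IIhi, of 44 tested (Ctse did not pass the filter in cultured cells), where 20.8% of all genes were called, 9.2% higher and 11.6% lower. The members' median was 0.52 against -0.01 over all genes. Called were 5 higher and 1 lower of 10 cathepsins with legumain, 6 higher and 1 lower of 14 other hydrolases, 1 higher and 0 lower of 4 soluble cofactors, 3 higher and 1 lower of 7 membrane proteins, 1 higher and 0 lower of 3 transcription factors and 5 higher and 0 lower of 6 pump subunits. Without lactate MHC-IIlo 5, which shares the fit, 26 were higher and 4 lower, with 24.7% of all genes called. That left the 24 calls in place and added Ctsf, Lgmn, Hexa, Manba and Grn as higher and Ctsh as lower.

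Ctsk had 279.8, 341, 270.4, 362 and 345 CPM in no-lactate MHC-IIhi and 659.7, 888, 817, 1079 and 1484 CPM in no-lactate MHC-IIlo. The spread within MHC-IIlo was wide, yet its lowest library was above all of MHC-IIhi (log2 fold change 1.66 ± 0.26, adjusted p = 6.9e-05). Ctsa (ENSMUSG00000017760, chromosome 2, 164832873 to 164841032) had 898, 834, 608, 724 and 860.4 CPM in no-lactate MHC-IIhi and 1315, 1451, 1251, 1319.9 and 1485 CPM in no-lactate MHC-IIlo, also without overlap (log2 fold change 0.83 ± 0.16, adjusted p = 8.2e-04). Ctsd, Ctsl and Ctsb were higher by 1.07, 1.07 and 0.90, the call of Ctsl ending without no-lactate MHC-IIhi 7 (adjusted p = 0.0535). All 3 calls ended in the FPKM table, where the highest genes hold tied values: Ctsl and Ctsb were at 0.00 (adjusted p = 1) and Ctsd at 0.58 (up to 0.141). Ctsc had 716, 934, 1440.2, 1673 and 446 CPM in no-lactate MHC-IIhi and 393, 400.0, 328, 345 and 352 CPM in no-lactate MHC-IIlo. It varied widely among the MHC-IIhi libraries and was low and even in MHC-IIlo (log2 fold change -1.48 ± 0.32, adjusted p = 0.00197), 2.80-fold lower.

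Galc, at 16.6, 21.4, 24.2, 26.1 and 17.9 CPM in no-lactate MHC-IIhi and 44.0, 36.4, 41.9, 37.8 and 53.4 in MHC-IIlo, kept its difference (log2 fold change 1.04 ± 0.18, adjusted p = 2.7e-04). So did Tpp1, with 337, 359, 267, 284 and 353 CPM in no-lactate MHC-IIhi and 494, 551, 499, 555 and 577 CPM in no-lactate MHC-IIlo (log2 fold change 0.78 ± 0.14, adjusted p = 2.5e-04). Neither overlapped. Gaa (0.61 ± 0.13) and the glucuronidase Gusb (0.84 ± 0.20) were higher, as were Lipa (0.86 ± 0.29) and Glb1 (0.37 ± 0.12). The call of Lipa ended for 12 and that of Glb1 for 8 of the 20 libraries left out in turn (adjusted p up to 0.106 and 0.112). Lipa was also lost in the FPKM table (up to 0.0575) and Glb1 without a filter on low counts (0.0714). Acp5, the tartrate-resistant phosphatase used to stain osteoclasts, was lower (log2 fold change -1.01 ± 0.32, adjusted p = 0.0277), a call that ended for 6 libraries left out in turn (adjusted p up to 0.0722).

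Psap (ENSMUSG00000004207, chromosome 10, 60277627 to 60302597), not called in fresh cells, had 14182, 16402, 10529.8, 14356 and 14328 CPM in no-lactate MHC-IIhi and 21739, 23587, 20938, 20704 and 23065 CPM in no-lactate MHC-IIlo. The groups were apart, but the call was marginal (log2 fold change 0.69 ± 0.24, adjusted p = 0.0453) and ended for 18 of 20 libraries left out in turn (adjusted p up to 0.116), with RLE scaling (0.0516), without a filter (0.0726) and in the FPKM table (1). Cd63 (ENSMUSG00000025351, chromosome 10, 128908919 to 128912816) had 287, 307, 295, 285 and 309 CPM in no-lactate MHC-IIhi and 553, 642, 627, 592 and 655 CPM in no-lactate MHC-IIlo, about even within each group and clearly apart (log2 fold change 1.09 ± 0.14, adjusted p = 1.1e-05). Lamp1 had 1853, 1975, 1752, 1961 and 1613 CPM in no-lactate MHC-IIhi and 2958, 3133, 2912, 3103 and 3303 CPM in no-lactate MHC-IIlo, likewise apart (log2 fold change 0.78 ± 0.17, adjusted p = 0.00235). Sort1 (ENSMUSG00000068747, chromosome 3, 108284082 to 108361511) was low and opposite in sign to the fresh cells, with 5.25, 12.1, 7.72, 10.98 and 8.09 CPM in no-lactate MHC-IIhi and 3.61, 2.98, 2.33, 2.33 and 2.31 CPM in no-lactate MHC-IIlo. Every MHC-IIlo library was below every MHC-IIhi one (log2 fold change -1.66 ± 0.24, adjusted p = 3.5e-05). Mcoln1 was higher by 0.44, a call lost for 7 libraries left out in turn (adjusted p up to 0.0962) and without a filter on low counts (0.0526). Npc1, Scarb2 and Lamp2, higher in fresh MHC-IIlo, were at 0.18, 0.15 and 0.00 and not called.

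Tfeb now stood higher in MHC-IIlo, with 27.03, 28.3, 28.1, 31.8 and 24.99 CPM in no-lactate MHC-IIhi and 47.2, 42.3, 39.6, 45.9 and 46.1 CPM in no-lactate MHC-IIlo. The groups did not overlap (log2 fold change 0.69 ± 0.22, adjusted p = 0.0305), and the call ended for 8 libraries left out in turn (adjusted p up to 0.0821) and with a replicate block on the header numbers (0.0677). Tfe3 had 153, 146, 139, 157 and 144 CPM in no-lactate MHC-IIhi and 136, 132, 112, 126 and 125 CPM in no-lactate MHC-IIlo. Mitf had 96.7, 116, 117, 125 and 84.1 CPM in no-lactate MHC-IIhi and 107, 89.6, 92.9, 103 and 103 CPM in no-lactate MHC-IIlo. Neither was called (-0.19, adjusted p = 0.334, for Tfe3 and -0.09, adjusted p = 0.778, for Mitf).

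Atp6v1h (ENSMUSG00000033793, chromosome 1, 5070018 to 5162529), a regulatory V1 subunit, had 213, 199, 142, 149.8 and 209 CPM in no-lactate MHC-IIhi and 259, 332, 329, 298 and 326 CPM in no-lactate MHC-IIlo. It led the pump by its p and did not overlap (log2 fold change 0.79 ± 0.13, adjusted p = 1.9e-04). Atp6v0d2 had 76.2, 139.6, 50.5, 85.8 and 97.7 CPM in no-lactate MHC-IIhi and 169, 214, 329, 211 and 315 CPM in no-lactate MHC-IIlo, a 2.78-fold difference (log2 fold change 1.48 ± 0.28, adjusted p = 6.5e-04). Atp6v1b2 (0.66 ± 0.16), Atp6v1a (0.62 ± 0.16) and Atp6v1c1 (0.48 ± 0.14) were higher. The call of Atp6v1c1 ended without no-lactate MHC-IIhi 5 (0.0502), MHC-IIhi 6 (0.053) or MHC-IIlo 6 (adjusted p = 0.0526). Atp6v0d1, with 299, 281, 202, 259.5 and 300.2 CPM in no-lactate MHC-IIhi and 329, 361, 324, 319 and 329 CPM in no-lactate MHC-IIlo, did not overlap and was not called (log2 fold change 0.34 ± 0.16, adjusted p = 0.135).

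**Figure D3:**
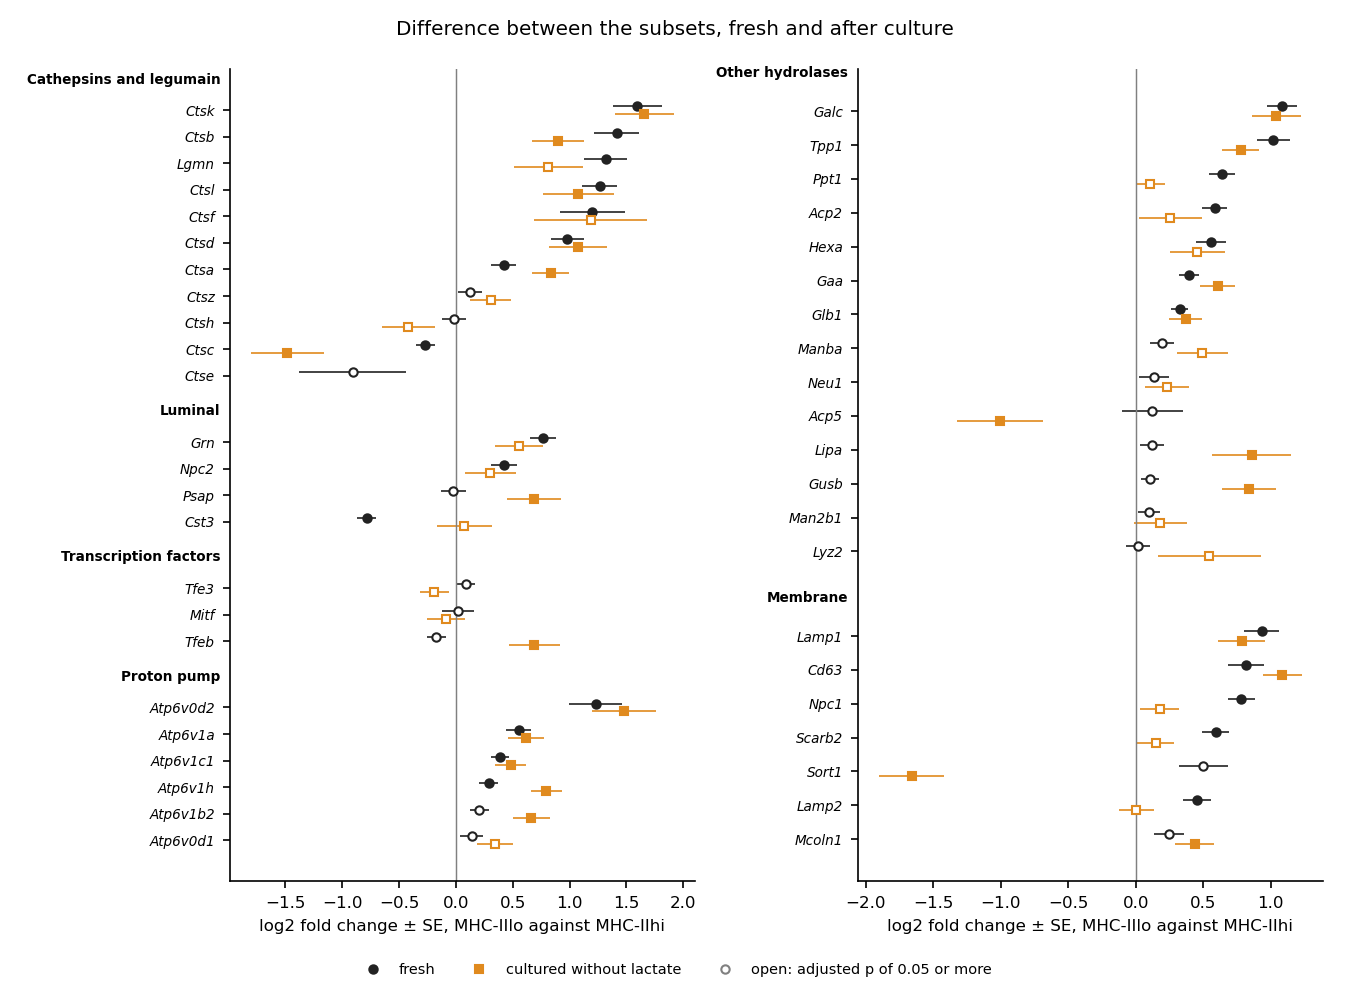
Log2 fold change ± SE of each member, MHC-IIlo against MHC-IIhi (x axis), in fresh cells (black circles, 5 against 5 libraries) and after culture without lactate (orange squares, 5 against 5); filled symbols passed an adjusted p of 0.05, members are rows grouped by class, and Ctse has no cultured value. Most members lie to the right of 0 in both states, Ctsc, Sort1 and Acp5 lie far to the left after culture, and Cst3 is to the left in fresh cells and near 0 after culture.

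With lactate, 15 members were higher and 4 lower in MHC-IIlo than in MHC-IIhi, of 44 tested, with 22.4% of all genes called (9.13% higher and 13.3% lower). This count depended on 1 library: without lactate MHC-IIlo 5, 27 were higher and 3 lower, with 25.4% of all genes called. Newly called then were Ctsl at 1.11 (adjusted p = 2.7e-04), Lipa at 1.05 (adjusted p = 5.5e-04), Psap at 0.84 (adjusted p = 8.8e-04) and Lgmn at 0.93 (adjusted p = 0.00157), with Ctsz, Glb1, Gusb, Neu1, Grn, Npc2, Tfeb and Atp6v0d1 also higher, and Mitf was lost (-0.39, adjusted p = 0.0575). With all libraries in, Cd63 (1.19 ± 0.14), Tpp1 (0.73 ± 0.14), Gaa (0.84 ± 0.13), Atp6v1h (0.91 ± 0.14) and Atp6v0d2 (1.72 ± 0.29) were higher, and Ctsc (-1.77 ± 0.32), Sort1 (-1.64 ± 0.23), Acp5 (-1.16 ± 0.32) and Mitf (-0.53 ± 0.17) lower. Calls that other single libraries could end were those of Ctsd (4 libraries, adjusted p up to 0.0706), Ctsf (1, up to 0.0545), Atp6v1c1 (2, up to 0.0526) and Mitf (3, up to 0.082). In the FPKM table the calls of Ctsb and Ctsd ended (adjusted p up to 0.377 and 0.643).

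The next comparisons set cultured cells without lactate against fresh cells of the same subset. They share libraries with the comparisons above, and the number of cells lysed differed too, so culture and cell number cannot be told apart. In MHC-IIhi 25 members rose and 12 fell of 45, with 62% of all genes called (31.6% higher and 30.4% lower). In MHC-IIlo 25 rose and 9 fell, with 57.5% of all genes called (27.6% and 29.9%). The members' medians were 0.47 and 0.49, against 0.01 and -0.01 over all genes. Counts in MHC-IIhi were 6 higher and 3 lower of 11 cathepsins with legumain, 5 higher and 7 lower of 14 other hydrolases, 3 higher and 1 lower of 4 soluble cofactors, 5 higher and 0 lower of 7 membrane proteins, 1 higher and 1 lower of 3 transcription factors and 5 higher and 0 lower of 6 pump subunits. In MHC-IIlo they were 5 higher and 2 lower of 11, 5 higher and 6 lower of 14, 4 higher and 0 lower of 4, 4 higher and 1 lower of 7, 2 higher and 0 lower of 3 and 5 higher and 0 lower of 6.

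Ctsk went from a mean of 70.2 ± 20.7 CPM (SD, n = 5) to 319.5 ± 41.5 CPM in MHC-IIhi and from 211 ± 30.9 to 985 ± 317 in MHC-IIlo. Its changes were 2.21 ± 0.24 (adjusted p = 5.1e-08) and 2.27 ± 0.23 (4.0e-08), with no overlap in either subset. Ctsl had 5029, 6583, 5717, 5696 and 3434 CPM in no-lactate MHC-IIhi and 10444, 11753, 10556, 10636 and 11218 in MHC-IIlo, all above the fresh values given earlier (1.60 ± 0.19 and 1.41 ± 0.18). Ctsz (ENSMUSG00000016256, chromosome 2, 174427493 to 174439039) had 904, 845, 881, 908 and 986 CPM in fresh MHC-IIlo and 2003, 2312, 1905, 1945 and 2065 CPM in no-lactate MHC-IIlo, well apart (log2 fold change 1.23 ± 0.13, adjusted p = 3.8e-08). Ctsb (1.52 in MHC-IIhi and 1.00 in MHC-IIlo) and Ctsd (1.18 and 1.27) rose in both subsets. Ctsc (ENSMUSG00000030560, chromosome 7, 88278085 to 88310888) fell from the fresh to the cultured values above by 2.61-fold in MHC-IIhi (-1.38 ± 0.24) and 6.06-fold in MHC-IIlo (log2 fold change -2.60 ± 0.25, adjusted p = 1.1e-08). Ctsf, at 6.44 ± 1.90 CPM in fresh MHC-IIlo, also fell in both (-2.15 and -2.17). Ctsh rose (0.64) and the low Ctse fell (-2.37) in MHC-IIhi, and neither was called in MHC-IIlo (0.23 and -0.54). Ctsa and Lgmn were not called in either subset.

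The other hydrolases split in direction with culture. Lipa (ENSMUSG00000024781, chromosome 19, 34492318 to 34527474), the acid lipase that frees cholesterol from its esters, had 142, 128, 137, 135 and 138 CPM in fresh MHC-IIhi and 627, 819.9, 455, 689 and 539 CPM in no-lactate MHC-IIhi. In MHC-IIlo it had 141, 135, 145, 139.7 and 173 CPM fresh and 1038, 1117, 1298, 940.3 and 1199.9 CPM after culture. It rose 4.75-fold in MHC-IIhi (2.25 ± 0.16 on the log2 scale, adjusted p = 6.3e-11) and 7.88-fold in MHC-IIlo (log2 fold change 2.98 ± 0.16, adjusted p = 1.2e-12), the smallest p of the members in each subset. Acp5 rose by 2.94 and 1.82, Acp2 by 0.95 and 0.62, Gaa by 0.52 and 0.73 and the sialidase Neu1 by 0.40 and 0.49. Man2b1 (ENSMUSG00000005142, chromosome 8, 85083269 to 85098739), a mannosidase, had 550.3, 526, 541, 583 and 557 CPM in fresh MHC-IIhi and 169, 185, 180.1, 222 and 156 CPM in no-lactate MHC-IIhi, and 620.3, 570.3, 569.9, 587 and 587 CPM in fresh MHC-IIlo and 213, 194, 177, 185 and 241 CPM in no-lactate MHC-IIlo. All cultured values were below all fresh ones, with changes of -1.56 ± 0.12 in MHC-IIhi and -1.48 ± 0.12 in MHC-IIlo (adjusted p = 4.2e-10 and 1.1e-09). Lyz2 (-1.70 and -1.18), Manba (-1.19 and -0.90), Glb1 (-0.80 and -0.77), Ppt1 (-0.62 and -1.16) and Galc (-0.42 and -0.47) fell in both. Tpp1 and Hexa were not called in either subset, at 0.19 and -0.06 for Tpp1 and 0.17 and 0.06 for Hexa.

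Npc2 (ENSMUSG00000021242, chromosome 12, 84754560 to 84773112) had 879, 742, 871, 975 and 864 CPM in fresh MHC-IIhi and 3187, 3388, 2822, 3202 and 2670.5 CPM in no-lactate MHC-IIhi, and 1198, 1062, 1077, 1211 and 1213 CPM in fresh MHC-IIlo and 3481, 4141, 3483, 3578 and 3721 CPM in no-lactate MHC-IIlo. It rose without overlap in both subsets (1.85 ± 0.14 and 1.73 ± 0.14). Psap had 5886, 5748, 6901, 7298 and 6369 CPM in fresh MHC-IIhi and 6372, 5731, 6276, 6588 and 6515 CPM in fresh MHC-IIlo, and rose from there to the cultured values above (1.15 ± 0.15 and 1.86 ± 0.15). In the FPKM table, where it is tied with other top genes, both changes were 0.00 (adjusted p = 1), as was that of Ctsd in MHC-IIlo. Grn was called higher in both (0.75 and 0.53), but in the deposited FPKM table, where its values take few distinct levels, its change in MHC-IIlo had the other sign (-0.87).

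Npc1 had 388, 454, 301, 337 and 445 CPM in no-lactate MHC-IIhi and 470.4, 408, 392, 429 and 425 CPM in no-lactate MHC-IIlo, above the fresh values (1.03 ± 0.13 and 0.42 ± 0.13). Scarb2 (ENSMUSG00000029426, chromosome 5, 92441314 to 92506833) had 154, 127, 123, 135 and 149 CPM in fresh MHC-IIhi and 247, 281, 261, 292 and 242 CPM in no-lactate MHC-IIhi, a clear rise (log2 fold change 0.97 ± 0.11, adjusted p = 9.0e-08). It had 212, 193, 192, 209 and 225 CPM in fresh MHC-IIlo and 282, 276, 297, 275 and 303 CPM in no-lactate MHC-IIlo (log2 fold change 0.53 ± 0.11, adjusted p = 2.5e-04). Mcoln1 (ENSMUSG00000004567, chromosome 8, 3500457 to 3515232) had 49.2, 45.2, 46.6, 54.6 and 59.2 CPM in fresh MHC-IIlo and 109.6, 107, 98.05, 104 and 116 CPM in no-lactate MHC-IIlo, with no overlap (log2 fold change 1.12 ± 0.15, adjusted p = 1.3e-06), and rose in MHC-IIhi by 0.94. Sort1 had 13.9, 10.1, 7.97, 9.25 and 13.8 CPM in fresh MHC-IIhi and 12.3, 14.4, 15.05, 16.7 and 18.6 CPM in fresh MHC-IIlo. In MHC-IIlo the cultured values were 5.45-fold lower (log2 fold change -2.45 ± 0.24, adjusted p = 1.8e-08), while in MHC-IIhi the change was not called (log2 fold change -0.28 ± 0.23, adjusted p = 0.284). Lamp1 (0.43) and Lamp2 (0.47) rose in MHC-IIhi and were not called in MHC-IIlo (0.27 and 0.01), and Cd63 rose in MHC-IIlo (0.50) and was not called in MHC-IIhi (0.24), with 0 of these 3 called in the test of the difference below.

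Mitf rose in both subsets from the fresh to the cultured values above, without overlap (1.11 ± 0.15, adjusted p = 1.0e-06, in MHC-IIhi and 1.00 ± 0.14, 4.5e-06, in MHC-IIlo). Tfeb fell in MHC-IIhi (-0.46 ± 0.10 on the log2 scale, adjusted p = 4.4e-04) and rose in MHC-IIlo (log2 fold change 0.40 ± 0.10, adjusted p = 0.00173). Tfe3 was not called (0.21 and -0.08). The fall of Tfeb was lost in the FPKM table (adjusted p up to 0.167) and its rise with all 30 libraries in 1 fit (0.0877).

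In the pump, 5 of 6 subunits rose in both subsets. Atp6v1a had 789.7, 919.9, 551, 685 and 828 CPM in no-lactate MHC-IIhi and 1001, 1179, 1182, 1081 and 1214 CPM in no-lactate MHC-IIlo, each above the fresh range (1.33 ± 0.14 and 1.39 ± 0.14). Atp6v1b2 (ENSMUSG00000006273, chromosome 8, 69088646 to 69113711), the other V1 subunit that holds the nucleotide site, had 669.8, 614, 588, 628 and 673 CPM in fresh MHC-IIlo and 1534, 1704, 1700.0, 1494 and 1631 CPM in no-lactate MHC-IIlo, with no overlap (log2 fold change 1.40 ± 0.12, adjusted p = 1.6e-09), and rose in MHC-IIhi by 0.95. Atp6v1c1 (ENSMUSG00000022295, chromosome 15, 38661904 to 38692443) had 144, 125, 137, 141 and 141 CPM in fresh MHC-IIhi and 322, 322, 211, 241 and 353 CPM in no-lactate MHC-IIhi, also apart (log2 fold change 1.11 ± 0.12, adjusted p = 1.1e-07), and rose in MHC-IIlo by 1.197. Atp6v0d2 rose by 1.79 ± 0.28 and 2.04 ± 0.27. Atp6v1h rose too, though in MHC-IIhi not in the FPKM table (adjusted p up to 0.0881). Atp6v0d1 was the exception, at 0.05 (adjusted p = 0.767) and 0.25 (adjusted p = 0.0983).

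**Figure D4:**
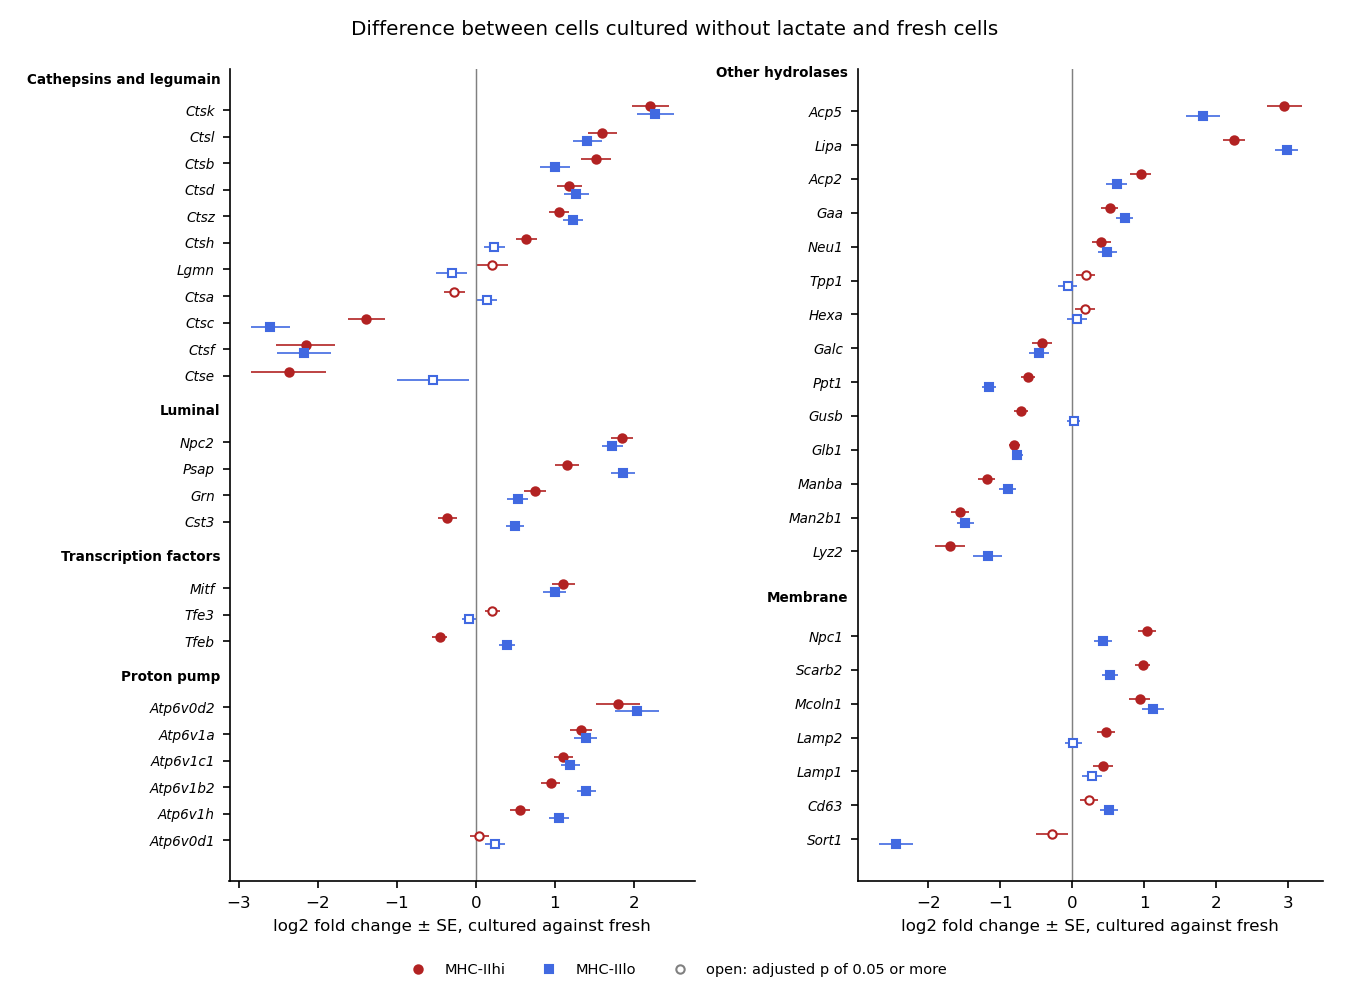
Log2 fold change ± SE of each member in cells cultured without lactate against fresh cells (x axis), in MHC-IIhi (red circles) and MHC-IIlo (blue squares), 5 against 5 libraries each; filled symbols passed an adjusted p of 0.05 and members are rows grouped by class. Pump subunits other than Atp6v0d1 lie to the right in both subsets, the other hydrolases spread from Acp5 and Lipa on the right to Man2b1 and Lyz2 on the left, and Sort1, Cst3 and Tfeb differ between the subsets.

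A direct test of the difference between the culture effects called 5 members as more positive in MHC-IIlo and 5 as more negative, with 14.3% of all genes called (6.03% and 8.27%). This is also the change of the subset difference with culture. Sort1 led (log2 fold change -2.16 ± 0.33, adjusted p = 1.2e-04). Tfeb (log2 fold change 0.86 ± 0.14, adjusted p = 3.0e-04) and Gusb (log2 fold change 0.73 ± 0.13, adjusted p = 6.6e-04) came next by p. Gusb (ENSMUSG00000025534, chromosome 5, 129989011 to 130003049) had 324, 313, 319, 323 and 322 CPM in fresh MHC-IIhi, 348, 354, 329, 328 and 349.8 CPM in fresh MHC-IIlo, 183, 178, 205, 211 and 179 CPM in no-lactate MHC-IIhi and 353, 345, 307, 302 and 354 CPM in no-lactate MHC-IIlo. It fell with culture in MHC-IIhi (-0.71 ± 0.09) and was not called in MHC-IIlo (0.02 ± 0.09). Cst3 had 1027, 948, 839, 1096 and 887 CPM in no-lactate MHC-IIhi and 1022, 1111, 881, 909 and 1007 CPM in no-lactate MHC-IIlo, where the subsets overlapped, having fallen in MHC-IIhi (-0.36 ± 0.12) and risen in MHC-IIlo (0.50 ± 0.12, difference 0.86 ± 0.17, adjusted p = 0.00131). Lipa (0.73) and Psap (0.71) were the others on the positive side, and Ctsc (-1.22), Acp5 (-1.13), Npc1 (-0.61) and Ppt1 (-0.54) on the negative one. The call of Psap ended without fresh MHC-IIhi 4 (adjusted p = 0.0579), fresh MHC-IIlo 2 (0.0547) or no-lactate MHC-IIlo 3 (0.0509), and that of Npc1 without fresh MHC-IIlo 4 (0.0515) or no-lactate MHC-IIhi 4 (0.0522). With all 30 libraries in 1 fit the calls of Gusb (adjusted p = 0.0523), Cst3 (0.0652), Acp5 (0.0967), Psap (0.128) and Lipa (0.216) ended, and in the FPKM table those of Npc1 (up to 0.0891) and Psap (1). In that fit the fall of Cst3 in MHC-IIhi was not called either (0.136). Of the pump, 0 of 6 subunits were called here, with values of 0.06 to 0.50. Without a call their changes are not shown to be equal.

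Lactate moved 1 member of 44 past the threshold, Sort1, in both subsets, where 0.25% of all genes were called in MHC-IIhi (0.206% higher and 0.0441% lower) and 1.49% in MHC-IIlo (0.905% and 0.581%). Sort1 had 20.6, 24.7, 14.8, 16.1 and 19.3 CPM in lactate MHC-IIhi against 5.25, 12.1, 7.72, 10.98 and 8.09 without lactate, and 6.32, 6.29, 7.21, 4.85 and 6.27 CPM in lactate MHC-IIlo against 3.61, 2.98, 2.33, 2.33 and 2.31 without. The groups did not overlap in either subset, and Sort1 was higher with lactate by 1.12 ± 0.23 in MHC-IIhi (adjusted p = 0.0392) and 1.15 ± 0.24 in MHC-IIlo (adjusted p = 0.0235), about 2.18-fold and 2.21-fold. The direction was the same in every alternative run, but the call was not firm. In MHC-IIhi it ended for 17 of 20 libraries left out in turn (adjusted p up to 0.156), and in MHC-IIlo for 6 of 20 (up to 0.0691). A replicate block ended it in MHC-IIhi (0.0569), and log2(FPKM + 1) in MHC-IIlo (adjusted p up to 0.0865). The 2 effects differed by 0.02 ± 0.32 (adjusted p = 0.991). Without lactate MHC-IIlo 5, Sort1 was still the 1 member called, at 1.12 in MHC-IIhi (adjusted p = 0.0202) and 1.29 in MHC-IIlo (0.0119). Of all genes 0.394% and 0.969% were called in that fit. Its difference of lactate effects had 0 members and 0% of all genes called.

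No cathepsin, other hydrolase or pump subunit was called under lactate in the main fit, edgeR without a block. In MHC-IIlo, voom, the replicate block and the fit without lactate MHC-IIlo 1 each called 1 further member, as lower. Of all genes they called 1502, 1111 and 758, against 202 in the main fit. At an unadjusted p under 0.05 there were 4 members in MHC-IIhi (Glb1, Galc, Sort1 and Atp6v0d2) among 1342 genes, and 4 in MHC-IIlo (Galc, Acp2, Sort1 and Mitf) among 2373. The test of the difference between the lactate effects called 0 members and 0% of all genes with edgeR, with 1 member, Galc, among 1018 genes at an unadjusted p under 0.05, and DESeq2 and limma voom also called 0 members. Atp6v0d2 had 39.9, 71.9, 61.5, 50.6 and 62.5 CPM in lactate MHC-IIhi and 146, 238, 211, 107 and 235 CPM in lactate MHC-IIlo, the first overlapping its level without lactate (log2 fold change -0.66 ± 0.28, adjusted p = 0.437). Lamp1 had 1979, 2121, 1756, 1748 and 1475 CPM in lactate MHC-IIhi and 3107, 3337, 3375, 2324 and 3176 CPM in lactate MHC-IIlo, where its changes were 0.00 and -0.04. Atp6v0d1 had 285, 267, 306, 219 and 259.8 CPM in lactate MHC-IIhi and 351, 376, 381, 298 and 321 CPM in lactate MHC-IIlo, with changes under lactate of 0.01 and 0.02. Of the factors, Tfeb had 36.5, 27.96, 25.6, 26.9 and 24.6 CPM in lactate MHC-IIhi and 48.5, 39.6, 33.3, 17.9 and 42.0 CPM in lactate MHC-IIlo. Tfe3 had 160.2, 145, 139, 136 and 137 CPM in lactate MHC-IIhi and 137, 112, 110.0, 103 and 116 CPM in lactate MHC-IIlo. Neither was called in either subset. Mitf had 101, 97.1, 103, 106 and 99.4 CPM in lactate MHC-IIhi and 94.4, 73.9, 47.9, 55.7 and 81.8 CPM in lactate MHC-IIlo. In MHC-IIlo 4 of 5 values of Mitf with lactate lay below all 5 without it, and it was not called (log2 fold change -0.53 ± 0.17, adjusted p = 0.109). Over the 44 members the median change, with all libraries in, was 0.01 in MHC-IIhi and -0.09 in MHC-IIlo.

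**Figure D5:**
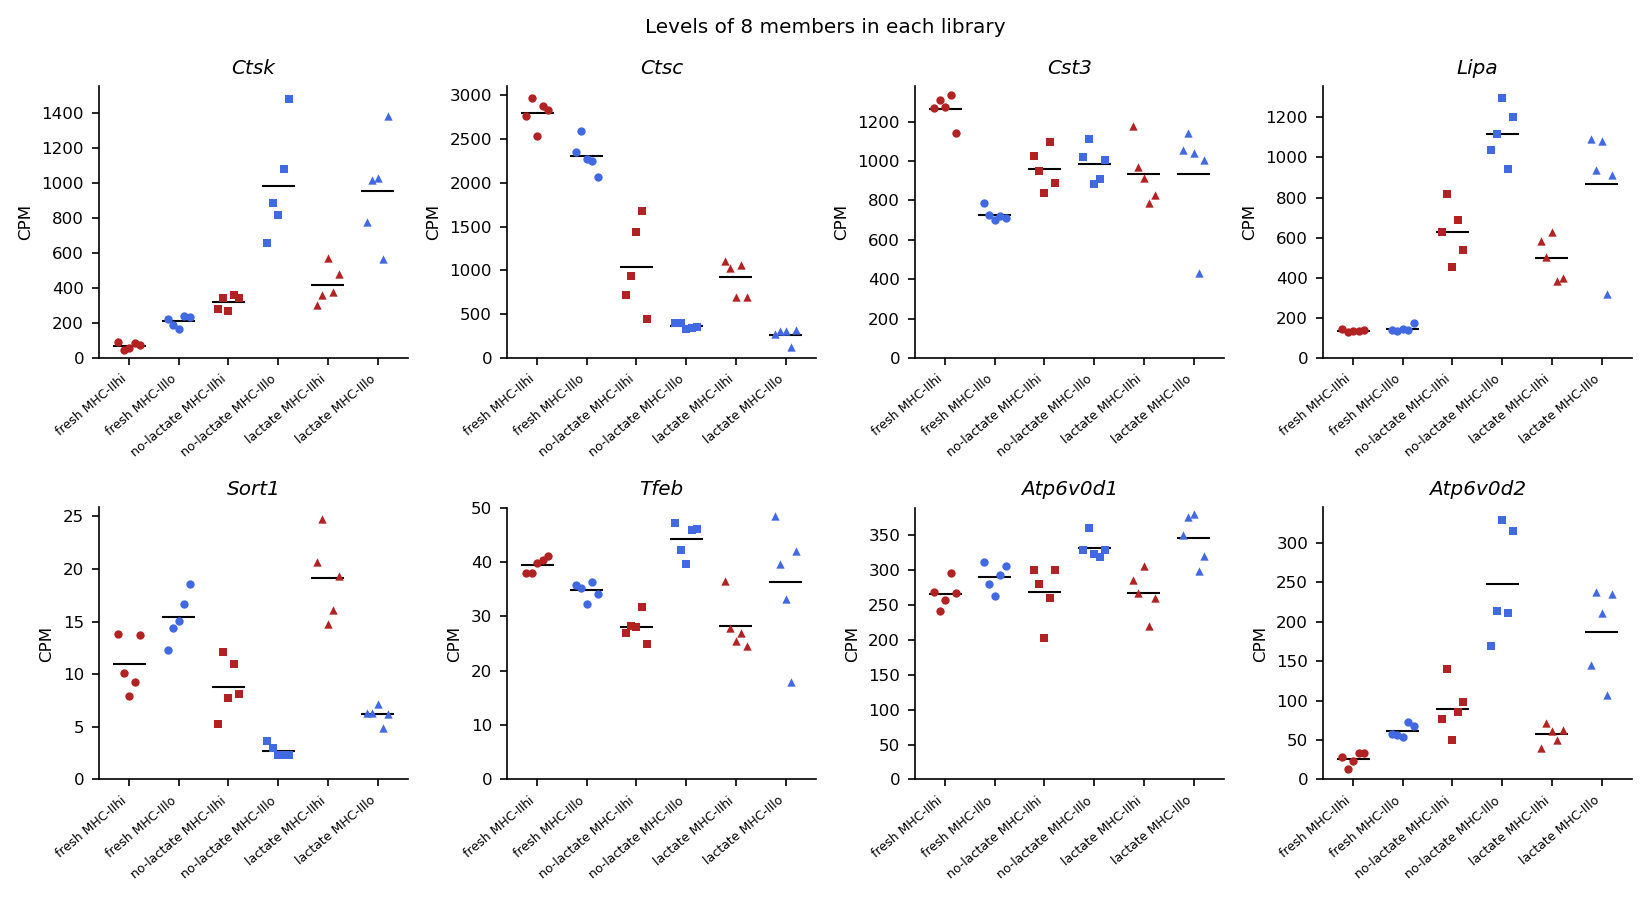
CPM (y axis) of 8 members in every library, with 5 points per group (x axis) and a line at the group mean; red marks MHC-IIhi, blue MHC-IIlo, circles fresh, squares no-lactate and triangles lactate. Sort1 is higher with lactate than without in both subsets, Ctsc and Lipa change with culture in opposite directions, Cst3 differs between the subsets in fresh cells and overlaps after culture, and 1 lactate MHC-IIlo library is low for Cst3, Lipa and Tfeb.

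Other lysosomal genes were counted from lists of the pathway and set beside all genes. In fresh MHC-IIlo, where 29.2% of all genes were called, 17 higher and 4 lower of 29 further hydrolases were called (72.4%) and 5 and 3 of 9 further proteases and inhibitors (88.9%). Further pump subunits had 4 higher and 2 lower of 14 (42.9%), and membrane proteins and carriers 10 and 3 of 26 (50%). Genes that deliver enzymes to the lysosome had 8 and 0 of 18 (44.4%), those of nutrient sensing and TFEB control 8 and 1 of 17 (52.9%), and those of autophagy 7 and 1 of 19 (42.1%). Between the no-lactate subsets, against 20.8% of all genes, the delivery genes stood at 9 and 2 (61.1%) and the hydrolases at 12 and 1 (44.8%). The others were nearer to that share: 5 and 1 for nutrient sensing (35.3%), 8 and 1 for membrane proteins (34.6%), 1 and 2 for proteases (33.3%), 4 and 0 for the pump (28.6%) and 3 and 1 for autophagy (21.1%). With culture, the further hydrolases (10 higher and 8 lower in MHC-IIhi, 62.1%, and 11 and 6 in MHC-IIlo, 58.6%) were called about as often as all genes (62% and 57.5%), and so were further pump subunits, with 6 and 2 (57.1%) and 7 and 2 (64.3%).

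By the smallest p of each list in a subset comparison, Sgsh, a heparan sulphate sulphatase, was higher in MHC-IIlo fresh (1.40, adjusted p = 1.8e-05) and cultured (1.12, adjusted p = 4.6e-05). Napsa, an aspartic protease, was lower in both, at -2.08 (adjusted p = 3.3e-07) and -2.00 (adjusted p = 6.2e-07). Atp6v0a1, a large V0 subunit, was higher in MHC-IIlo by 0.63 and 0.89, but changed with culture by -1.54 in MHC-IIhi and -1.28 in MHC-IIlo, lower where 5 pump members were higher. Rragd, a GTPase of nutrient sensing at the lysosome, was higher in MHC-IIlo (0.96, adjusted p = 0.00727, fresh and 1.66, adjusted p = 4.3e-05, cultured) and rose with culture by 2.49 in MHC-IIhi and 3.18 in MHC-IIlo. Gga2, an adaptor for enzyme sorting, was higher in MHC-IIlo by 0.81 and 0.96, and the endolysosomal channel Tpcn1 by 0.66 and 1.01.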

How the data were processed

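Bulk RNA-seq was measured in 30 libraries, 6 groups of 5. The submitters' processing notes name Trimmomatic (a read trimmer), STAR (an aligner), featureCounts (which assigns reads to genes) and GRCm38; versions, annotation and strand setting are not given in the sources used here, so reads from overlapping and antisense genes could not be told apart. The deposited raw counts are unnormalised, 1 column per library, with 46603 genes. The authors also deposited an FPKM table of 13778 genes, and its values multiplied by gene length are the same set in every column, so that it is quantile normalised with tied values among the highest genes.

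The 45 members and all gene lists were chosen with earlier results of these data known. Counts were fitted over all genes with edgeR 4.0.16 in R 4.3.3 (filterByExpr, TMM, quasi-likelihood test, group means, no block) in 3 fits: the 10 fresh libraries, the 20 cultured ones, and the 20 without lactate. P-values were adjusted by Benjamini-Hochberg over all genes tested, and a call is an adjusted p under 0.05. CPM and RPKM were computed from the counts and each library's total. No library repeated another: between libraries of a group chi-square per degree of freedom was 9.55 to 258. The fits were also run on simulated counts, drawn independently for each library with none made to stand apart. No result here rests on that run. Members with values in every library were, per class, the 2 with the smallest p in each subset and culture comparison, the 4 with the smallest p in each lactate comparison and each difference of effects, if called, and always Lamp1, Tfeb, Tfe3, Mitf, Atp6v0d1 and Atp6v0d2. Alternatives were RLE scaling, no filter, DESeq2 1.42.0, limma 3.58.1 (voom with quality weights, and trend on log2(FPKM + 1) or log2(FPKM + 0.1), with FPKM of at least 1 in 5 libraries or no filter), all 30 libraries in 1 fit, a replicate block, and the removal of each library in turn. Column headers number the cultured libraries otherwise than the labels do, so cultured columns were tied to their group and named by the header's number. The precision is set by 5 libraries per group and 16913250 to 31481548 counts per library.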

Additional observations from a re-analysis of the deposited data

Results flagged for a closer look

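Among 174 groups of 5 libraries (29 members in 6 groups), 15 had 1 library far from the other 4, where chance gives about 8.7, since it picks out 1 group in 20. Of these, 8 were the same library, lactate MHC-IIlo 5, low each time. It had 11421 CPM of Psap (others 20945 to 24517), 3194 CPM of Ctsl (others 10402 to 12721), 2517 CPM of Grn (others 3888 to 4384) and 2324 CPM of Lamp1 (others 3107 to 3375). It also had 1316 CPM of Ctsa (others 1562 to 1617), 429 CPM of Cst3 (others 1004 to 1142), 321 CPM of Lipa (others 912 to 1092) and 128 CPM of Ctsc (others 271 to 317).

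The other 7 were spread over 6 libraries. In fresh cells MHC-IIhi 2 was low for Lamp1 (1103 CPM, others 1418 to 1496), MHC-IIlo 1 high for Cst3 (785 CPM, others 701 to 724), and MHC-IIlo 5 high for Galc (70.3 CPM, others 57.6 to 59.9) and Lipa (173 CPM, others 135 to 145). In cultured cells no-lactate MHC-IIlo 3 was high for Atp6v0d1 (361 CPM, others 319 to 329), lactate MHC-IIhi 3 for Cd63 (361 CPM, others 274 to 289) and lactate MHC-IIhi 1 for Tfeb (36.5 CPM, others 24.6 to 27.96).

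The effect of culture differed between the subsets for 10 of 45 members by edgeR's test of the difference, where 14.3% of all genes were called. With all 30 libraries in 1 fit 5 members were called, and 1348 of 14015 genes. In the main fit the log2 change in MHC-IIlo minus that in MHC-IIhi was -2.16 for Sort1, -1.22 for Ctsc, -1.13 for Acp5, -0.61 for Npc1 and -0.54 for Ppt1. It was 0.86 for Tfeb, 0.86 for Cst3, 0.73 for Gusb, 0.73 for Lipa and 0.71 for Psap.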

How the results depend on the processing

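Of 153 calls of members over 8 comparisons (the difference of lactate effects had 0), 118 were kept in every alternative, 34 were lost in at least 1, and 1 changed sign. That one was Grn with culture in MHC-IIlo, at -0.87 in the 3 FPKM fits against 0.53 from counts. The same fits turned 2 uncalled values: Lamp2 between the lactate subsets, at 0.29, and Ctsd in the difference of culture effects, at -1.20, -1.21 and -1.20. Tied values at the top of the FPKM table come from its quantile normalisation. Counts of called members moved by over 1.5 times in 4 comparisons. Between the lactate subsets 31 were called by voom with quality weights, against 19. Over all genes that fit called 4040, against 3045, and counts over all genes follow in brackets. With lactate in MHC-IIlo 2 were called by voom (1502 genes) and 2 with the block (1111 genes), against 1 (202 genes). With log2(FPKM + 1) 0 were called there, with the filter (275 genes) or without (288 genes). In MHC-IIhi 0 were called with the block (81 genes, against 34), which ended the Sort1 call (adjusted p = 0.0569). The difference of culture effects had 18, 18 and 19 calls in the FPKM fits (2199, 2095 and 2506 genes), which tested another set of genes. It had 5 with all 30 libraries in 1 fit (1348 genes), against 10 (1957 genes). The cause was not tested.

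With 1 library left out, calls of members ranged from 25 to 28 between fresh subsets (over all genes, 3221 to 3667). They ranged from 17 to 30 without lactate (2205 to 3388 genes) and from 16 to 30 with it (2441 to 3485). With culture they were 37 to 39 in MHC-IIhi (8127 to 8607 genes) and 34 to 35 in MHC-IIlo (7440 to 8058). The difference of culture effects had 9 to 12 (1645 to 2058 genes). Under lactate there were 0 to 1 in MHC-IIhi (8 to 54 genes) and 0 to 2 in MHC-IIlo (53 to 758). The difference of lactate effects had 0 to 0 (0 to 8 genes).

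Same-numbered libraries were not treated as pairs. Their deviations correlated by 0.070 to 0.497 in fresh cells (4 of 5 over 0.1, and 4 of 5 matched their own number best) and by -0.322 to 0.484 in cultured cells. The lowest fresh value lies near the limit of 0.1. A replicate block gave 29 higher and 2 lower between fresh subsets, with 5004 genes called in place of 3737. Without and with lactate it gave 24 and 25 calls of members, with 3210 and 4105 genes in place of 2830 and 3045. No paired analysis was possible because cultured and fresh libraries share no label that pairs them, for the culture comparisons.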
